A study of Mus musculus with 2 samples.

Results

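Among the transcript models read in mouse gastrocnemius, 32056 contained at least 1 splice site that no annotated transcript of their gene uses. These are the models that TALON, the program that assigned the long reads to transcripts, placed in its class for unannotated donors or acceptors, in annotated genes other than Atp2a1, whose models with such sites alone held 194208 reads of replicate 1 and 188200 of replicate 2. Replicate 1 held 17578 of them among 85714 models and replicate 2 held 18046 among 92049. Joining the libraries by gene and by the chain of introns gave the 32056 distinct models, of 106342 distinct spliced models of annotated genes in all.

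The study sequenced full-length cDNA from gastrocnemius, a calf muscle made mostly of fast fibres, of female mice of the hybrid strain B6CASTF1/J at 2 months of age. There was 1 group of 2 libraries, each begun from 2 µg of total RNA with spike-in RNAs added. The labels describe animals 3 and 4 as the sources of replicates 1 and 2 but give both the same donor identifier, so the labels do not settle whether they are separate animals. The design has no treatment, time course or second tissue, and every test below compares the reads of 1 library with those of the other. Fisher's exact test, the main test, takes reads as independent and covers counting error only. It holds no estimate of the spread between animals or between preparations. The alternative test with edgeR assumes a spread set in advance and estimates none.

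Introns are removed from a transcript at a donor site, where the intron usually begins with GT, and an acceptor site, where it usually ends with AG. Tandem sites a few bases apart let the splicing machinery add or drop a few bases of an exon, and a change by a multiple of 3 bases keeps the reading frame of a coding exon. Skeletal muscle is known for many alternatively spliced sarcomere genes and for very short exons, and a long read shows all the splice sites of a molecule at once.

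The sequences that carry the results are shown first. All are on build mm10 and are written 5′ to 3′ on the gene's strand. They come from the GENCODE M21 transcripts, except the Myh4 donor, which comes from the RefSeq promoter table on GRCm38.p6. In the first set the capitals are the bases that a new donor adds to the exon, and the lower-case gt after them begins the new intron. This set shows donors found in nearly every read that had either the new or the annotated site.
Idh3g, chrX:73782669-73782686, minus strand: agcatttcctcaGTAAgt
Pitpna, chr11:75603469-75603486, plus strand: actgcagaaccgGTGAgt
Mrpl33, chr5:31614011-31614032, plus strand: ccgctgtctcttGTAAGTCGgt
Hnrnpk, chr13:58394058-58394087, minus strand: tatgaaccacagGTTGAGTATCAATAATgt
Capn2, chr1:182484184-182484213, minus strand: gcatctatgagGTACCGGCAGAGGATGGgt

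The introns that begin at these donors each span a short annotated exon. These exons, whole and in capitals, are shown because few or no reads held them with exactly their annotated ends.
Idh3g short exon, chrX:73782298-73782309, minus strand: CAACAAACAATT
Pitpna short exon, chr11:75608107-75608114, plus strand: TTATTACA
Mrpl33 short exon, chr5:31614603-31614621, plus strand: TTGCCAAGAGCAAGTCAAA
Hnrnpk short exon, chr13:58393853-58393868, minus strand: GGTGGTTCTGGATATG
Capn2 short exon, chr1:182482536-182482547, minus strand: GTTCCAGAGGAG

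In the third set the capitals are exon bases that a new acceptor leaves out. The first 5 lose 3 bases that end in AG, the most frequent acceptor displacement, and Ptcd3 loses 4.
Dus1l, chr11:120791917-120791943, minus strand: GAGgacatgtctaggcagcaagaagga
Hgs, chr11:120479087-120479113, plus strand: CAGtaccagaatggggagtcggaggag
Golga4, chr9:118551832-118551858, plus strand: AAGaactcagaagaacaagttgctgca
Flii, chr11:60720471-60720497, minus strand: TAGggagcgggtccaaggaccccttgg
Trdn, chr10:33466423-33466449, plus strand: AAGattccaaagaagcaccaacttcaa
Ptcd3, chr6:71889342-71889369, minus strand: GTAGattttttcagttggccatgagtgt

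In the fourth set the capitals are the last 2 bases of a new intron, or its first 2 for a donor. They show 6 of the most-read sites 11 to 100 bases from an annotated site, and the Myh4 pair that held the most reads of all.
Pde4dip acceptor, chr3:97709566-97709595, minus strand: ctaacccatcagcAGccagtgcatctcagg
Pde4dip acceptor, chr3:97709569-97709598, minus strand: cttctaacccatcAGcagccagtgcatctc
Qk acceptor, chr17:10216421-10216450, minus strand: ccttttctcttgcAGcaactgcccaggctg
Coro6 acceptor, chr11:77463896-77463925, plus strand: ctatctttgccccAGccatgagccggcgtg
Pdlim7 acceptor, chr13:55507635-55507664, minus strand: cccacagaaccagAGgttctgagctctgcc
Mknk2 donor, chr10:80676108-80676137, minus strand: tccgggctgtgctagGTgaggtgacggcgc
Myh4 donor, chr11:67237819-67237848, plus strand: ctcaaacccttaaagGTaggtatgtgtagc
Myh4 acceptor, chr11:67238029-67238054, plus strand: AGtacttgtctgactcaagcctgcct

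The models with unannotated sites held 42334 of 1349298 reads in replicate 1 (3.14%, 95% Wilson interval 3.11 to 3.17%) and 43550 of 1359923 in replicate 2 (3.20%, 3.17 to 3.23%), a mean of 3.17% ± 0.0459 (SD, n = 2). The Wilson intervals here and below cover counting error only. The models came from 8547 of the 15371 annotated genes with a read (55.6%). Most were rare: in each library 81.1% had 1 read. They had a median of 11 exons, against 7 for annotated spliced transcripts. A model had 1 new site in 62.9% of cases and 2 in 25.9%.

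The reads were concentrated in a few genes of the contractile and metabolic machinery. Myh4, the myosin heavy chain of the fastest fibres, held 11.4% of them, the first 10 genes 20.7% and the first 20 genes 26.2%. Others in the first 20 included Vdac3, Tnnt3, Mknk2, Mybpc1, Bin1, Ywhae, Hfe2, Ckm, Idh3g, Ampd1, Actn3, Gpd2, Mrpl33, Acta1, Ak1, Myl1, Car14 and Cct6a. Some were abundant genes with a small share of such reads. Ckm, muscle creatine kinase, had 583 reads on these models of 127400 in all, and Acta1, skeletal actin, had 473 of 143391. In others the new site was in nearly every read. The shares of gene reads that follow count the chains of these models in any class that TALON gave them. For Suds3, 146 of the 304 such reads were in the class for unannotated sites, and for Bin1 801 of 1575. For Mrpl33 all 478 were. Of genes with at least 100 reads, the highest shares were in Mrpl33, a mitochondrial ribosomal protein (96.8%), the chaperonin subunit Cct6a (95.0%), Suds3 (94.4%), Hacd1, a dehydratase of fatty acid elongation (93.8%), and the calpain Capn2 (93.5%). Chmp1a, Bin1, Idh3g, Vdac3 and Pitpna followed, down to 88.1%. The median over the 2988 genes with at least 100 reads was 2.29%.

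Whether a model was found again depended on how often it was read. Of the 32056 models, 3568 (11.1%) were read with this class in both libraries, while 21.3% of new combinations of annotated sites, 26.7% of incomplete splice matches and 69.3% of annotated spliced transcripts were. With at least 10 reads the share was 79.5% (586 of 737). The same intron chain could carry another class in the other library: 1173 of the chains were classed as new combinations of annotated sites there, 134 as incomplete matches and 14 as genomic. When a read of the chain in any class counted, 99.7% of models with at least 10 reads (867 of 870) were found in both libraries.

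**Figure D1:**
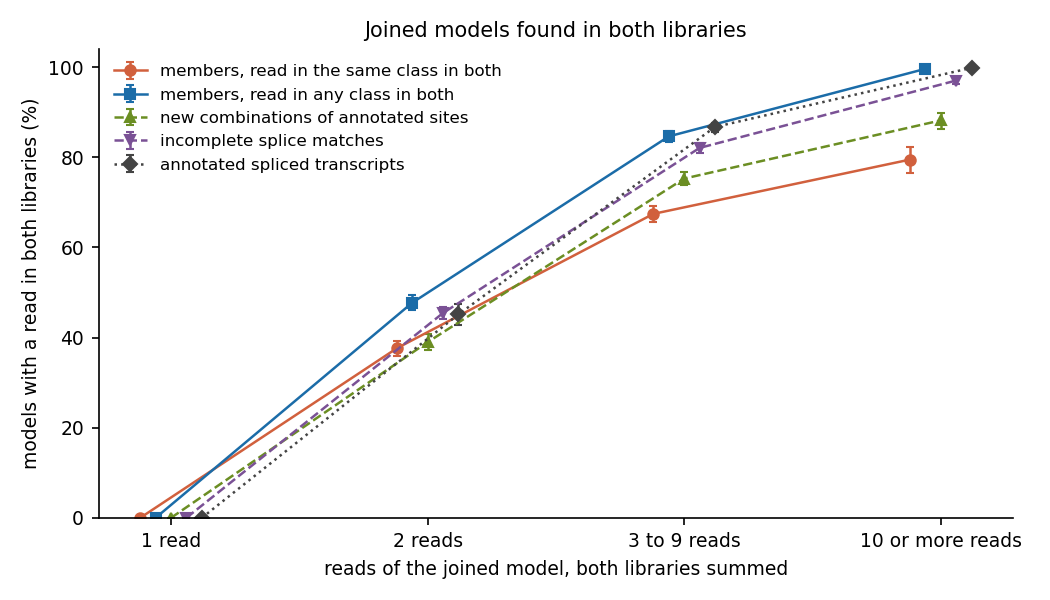
Share of joined models with a read in both libraries (y axis, %) against the reads of the model summed over the libraries (x axis), by class. Points are shares and bars 95% Wilson intervals; for models with unannotated sites and at least 10 reads the share is 79.5% within the class and 99.7% when any class counts.

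The change of class touched some of the most-read models. The 14-exon Bin1 chain had 521 reads in replicate 1 and 480 in replicate 2, and the 31-exon Phkb chain had 263 and 289. The 8-exon Tmem65 chain had 260 and 338, and the 8-exon Pdlim5 chain had 258 and 232. Each of these 4 chains was a member in 1 library and carried another class in the other, so counts within the class show it as absent there. The cause of the change of class was not tested. Reads of a site or a chain below are therefore counted over all classes, as in the shares of gene reads above. This choice was made after the counts were seen. Reads of any class with a new site made up 4.23% of replicate 1 and 4.39% of replicate 2.

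The models held 41176 distinct new sites, 20679 donors and 20497 acceptors, and 68.1% of the sites had 1 read. A new site lay a median of 165 bases from the nearest annotated site of its kind in the gene, 211 for donors and 106 for acceptors. Within 10 bases lay 26.7% of the sites, between 11 and 30 bases 9.12%, between 31 and 100 bases 9.92%, over 100 and up to 1000 bases 24.6% and farther 29.3%. By position, 45.9% were inside annotated exons, 43.2% in annotated introns and 10.9% outside the annotated gene. Of the 4483 outside the gene, 1114 (24.8%) were annotated sites of another gene on the strand.

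Close to annotated sites the new sites fell on a few displacements. Donors were most often 4 bases downstream, with 2286 distinct sites, while the next most frequent donor displacement, 4 bases upstream, had 426. Of the 411 donors at 4 bases downstream whose bases the annotated transcripts cover, 408 had GT there. Acceptors were most often 3 bases downstream (1136 sites, 99.2% with AG), then 2 (991) and 4 (951). Among all sites within 30 bases, 32.6% were displaced by a multiple of 3, 23.7% of donors and 40.3% of acceptors. With at least 10 reads the share was 52.3% for acceptors (174 of 333, interval 46.9 to 57.6%) and lower for donors (80 of 267, 24.8 to 35.7%). Near coding exons it was 32.9%, and near untranslated or noncoding exons 30.5%.

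**Figure D2:**
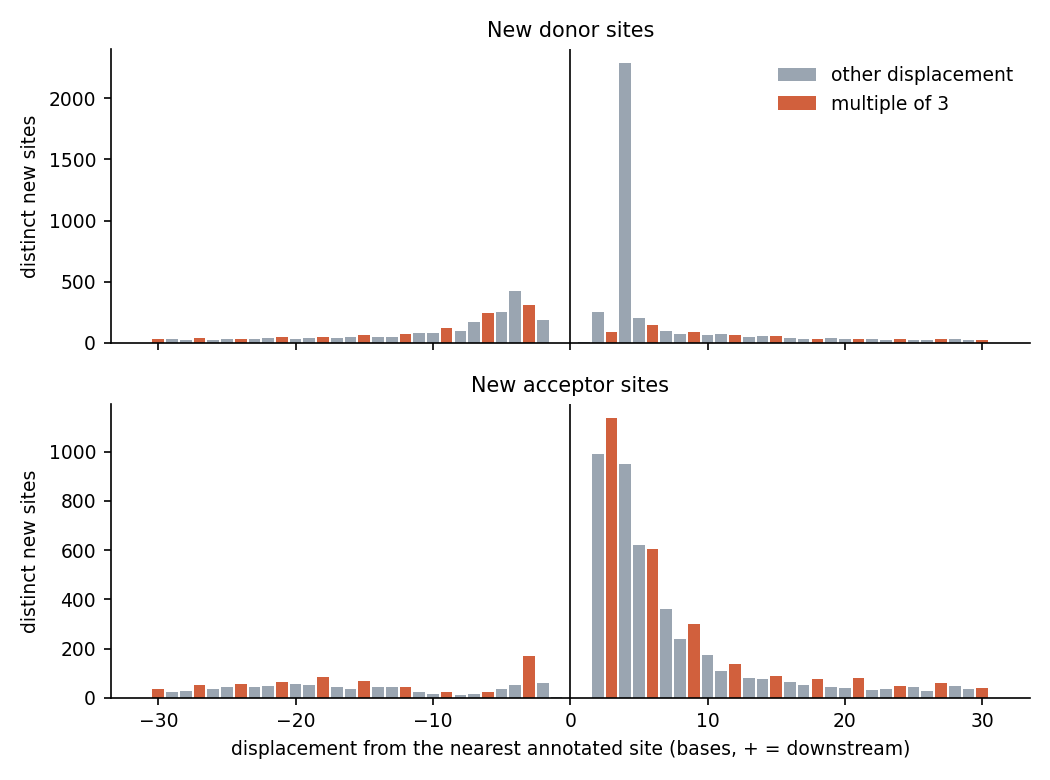
Distinct new donors (top) and acceptors (bottom) by displacement from the nearest annotated site of the gene in bases, positive downstream. Bars are counts of sites and orange bars are multiples of 3; the tallest donor bar is at 4 bases downstream (2286) and the tallest acceptor bar at 3 bases downstream (1136).

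New acceptors inside exons were found mostly where the exon holds the intron-end letters, and new donors too except at 4 bases. The motifs searched on the gene's strand were AG for an intron's end and GT for its beginning, over annotated sites with at least 100 reads. Where the third base of the exon ended an AG, 49.9% of acceptors (533 of 1069, interval 46.9 to 52.9%) had a new acceptor there, and without the AG 0.0304% had one. The AG occurred there at 4.44% of 24075 acceptors. At 2 bases the share with an AG was 49.2%, at 4 bases 37.2% and at 12 bases 3.89%. For donors with a GT, the share was 47.1% at 2 bases, 41.5% at 3, 31.4% at 4 and 4.13% at 12. At 4 bases more new donors lacked the GT (158, a share of 0.663%) than had it (107), and 54.0% of the 426 donors 4 bases upstream had GC. For both kinds of site the share was lower at 12 bases than at 2, 3 or 4. A motif match is a description of the letters and not a measure of splicing.

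**Figure D3:**
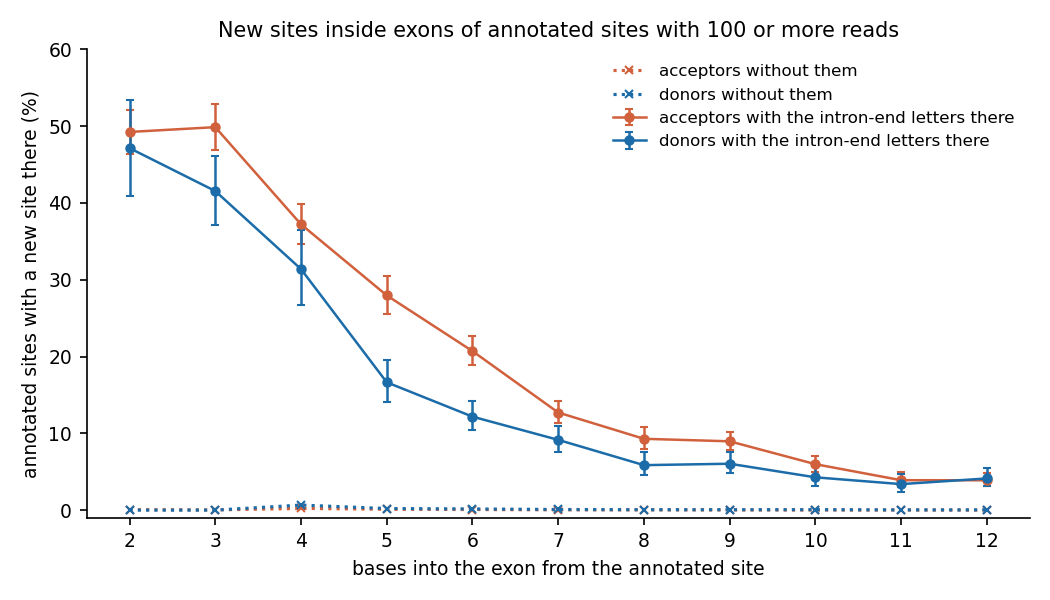
Share of annotated sites with a new site (y axis, %) at 2 to 12 bases inside the exon (x axis), with and without the intron-end letters (AG for acceptors, GT for donors) at that place. Points are shares and bars 95% Wilson intervals; acceptors with AG go from 49.9% at 3 bases to 3.89% at 12, and sites without the letters lie near 0.

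Most of these near sites were minor. The use of a site was computed as the reads that have it, among the reads that have it or have the nearest annotated site without it. Of 8442 sites within 30 bases with at least 50 such reads in each library, 88.9% had a use under 1% and 9.14% between 1 and 5%. The median use of a donor 4 bases downstream was 0.312%, and 16 of 1406 reached 5%. Acceptors 3 bases downstream had a median of 0.578%, with 30 of 508 at 5% or more, and those 3 bases upstream reached it in 12 of 36. Only 126 sites had a use of 5 to 50%, of which 53.2% were multiples of 3, and 10 had a use of 50 to 90%. The other 25 sites, in 21 genes, had a use of at least 90% in both libraries.

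Tandem acceptors 3 bases apart covered a wide range of use. The 5 examples printed above were chosen after their values were seen. In Dus1l, a dihydrouridine synthase, the downstream acceptor had a use of 97.1% in replicate 1 and 94.9% in replicate 2. In Hgs, a sorting protein of endosomes, it had 77.6% and 78.0%. In the Golgi protein Golga4 it had 32.2% and 35.4%, and in the actin-binding protein Flii 31.3% and 29.5%. In Trdn, triadin of the junctional reticulum, it had 13 reads against 89 at the annotated acceptor in replicate 1, and 41 against 251 in replicate 2. The upstream acceptor of Myot, a Z-disc protein, was the most-read site of this kind, with 233 reads against 2294 at the annotated site in replicate 1 and 193 against 2040 in replicate 2, a use of 9.22% and 8.64%. Other upstream acceptors of this kind had values farther apart in some cases. Fam114a2 had a use of 83.4% (76.7 to 88.5%) and 73.8% (67.1 to 79.6%). Nudt4, a phosphohydrolase, had 26.3% (22.6 to 30.3%) and 33.2% (28.7 to 38.1%). These intervals overlap, and neither site was called in the test against the nearest annotated site given below. The acceptor of Nrap, with more reads than either, had 36.4% and 38.0%.

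A different group of near donors was used in nearly every read. The donor of Idh3g, a subunit of mitochondrial isocitrate dehydrogenase, 4 bases downstream had 280 reads in replicate 1 and 279 in replicate 2, and the annotated donor had 6 and 2, a use of 97.9% and 99.3%. The donor of Mrpl33 8 bases downstream had 208 and 268 reads against 1 and 2, a use of 99.5% and 99.3%. That of Pitpna, a phosphatidylinositol transfer protein, 4 bases downstream had 157 and 166 reads, a use of 99.4% and 98.8%. In both libraries few reads had the annotated donor of these 3 genes without the new one.
In Suds3, a part of a histone deacetylase complex, the donor 4 bases downstream had a use of 98.8% and 96.6%. Vdac3, a channel of the outer mitochondrial membrane, had a donor 1 base downstream with 667 and 747 reads, and no read used the annotated donor without it. Hnrnpk, an RNA-binding protein that itself takes part in splicing, had a donor 16 bases downstream with a use of 98.9% and 98.4%. Ampd1, the AMP deaminase of muscle, had one 6 bases downstream with a lower use, 82.4% and 77.9%. In Eno3, the muscle enolase, the donor 4 bases downstream was also among the most-read, yet its use was 1.93% and 2.12%: it had 184 and 215 reads beside 9330 and 9934 at the annotated donor.

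**Figure D4:**
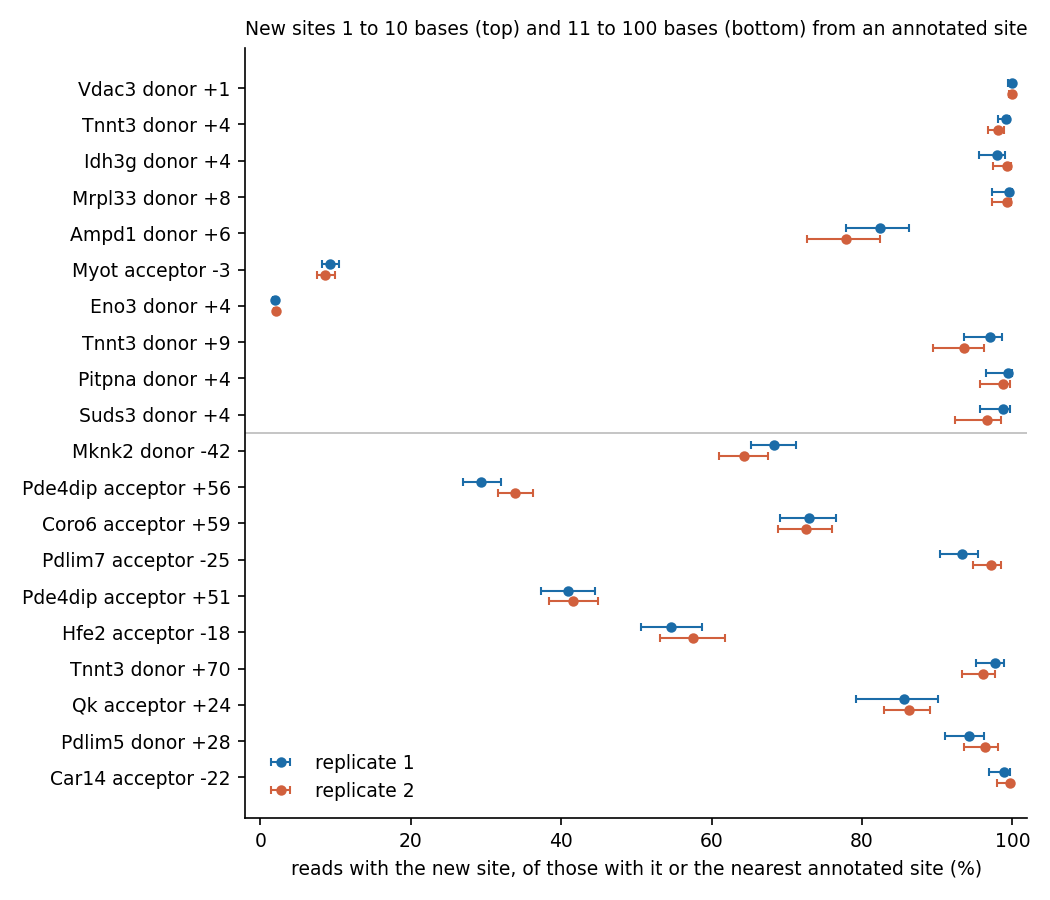
Use (x axis, %) of the 10 most-read new sites 1 to 10 bases and the 10 most-read 11 to 100 bases from an annotated site (y axis, with kind and signed displacement in bases). Points are the libraries and bars 95% Wilson intervals; Idh3g lies at 97.9 and 99.3%, Myot at 9.22 and 8.64% and Eno3 at 1.93 and 2.12%.

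Most of the sites with such high use had introns that span a very short annotated exon. Of the 25, 22 lay outward from the annotated exon, adding bases to it, and the introns of 18 spanned an annotated internal exon of 30 bases or fewer. In 9 of the 18 no spanned short exon had a read, in 8 the most-read one had 1 to 25 reads, and in 1, in Tnnt1, it had 202. Among all outward sites within 30 bases with at least 10 reads, 81 of 251 (32.3%) did, and among all 5399 outward sites 374 (6.93%). Such exons are 1319 of the 101378 annotated internal exons of the genes (1.30%). That share counts exons, and an intron can span several, so it is no baseline for the shares of sites. In 41 of the 81 cases the spanned exon had no read in either library, and in 51 the number of bases added was within 5 of the length of the exon. Both lengths were limited to 30 bases and no baseline was computed, so the 51 does not show that they match. A spanned exon was exactly as long as the added bases for 6 of the 251 sites (2.39%).

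The exons printed above are examples, with equal lengths in Hnrnpk and unequal ones in the other genes. The Hnrnpk donor added 16 bases, and the exon that its intron spans is 16 bases long and had 0 reads. Reads of an exon are those of models that hold it with exactly its annotated ends. A count of 0 therefore does not show that its bases were absent from the molecules. The Capn2 donor added 17 bases and its intron spanned an exon of 12, with 224 reads of the new site and 0 of the exon. For Idh3g these lengths were 4 and 12, with 559 reads against 0, and for Mrpl33 8 and 19, with 476 against 2. The Ampd1 intron spanned an exon of 12 bases (0 reads). Pdlim7, a Z-disc protein, and Car14, a carbonic anhydrase, had new acceptors of this kind. That of Pdlim7 added 25 bases and its intron spanned an exon of 17 (667 against 6 reads). That of Car14 added 22 and its intron spanned one of 21 (550 against 3).

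In the genes with at least 100 reads, the shortest annotated internal exons were the least often read. None of the 48 exons of 1 to 10 bases had a read with exactly its ends (0%, which allows up to 6.25%). Of those of 11 to 20 bases 23 of 107 did (21.5%), of 21 to 30 bases 202 of 280 (72.1%), of 31 to 60 bases 88.8% and of 61 to 120 bases 93.5% (93.1 to 94.0%). Above 120 bases the share was lower again (13407 of 14892, interval 89.5 to 90.5%). Some spanned exons were read often. The new acceptor of Bsg had 64 and 57 reads, and the 25-base exon its intron spans had 2216 in all, and in Atp2a2, the calcium pump of slow fibres, the 18-base exon had 1070 reads against 69. The part of the short exons in the use of these sites was not tested.

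Tnnt3, fast troponin T, which anchors troponin to the thin filament and is known for many small alternative exons, held 3 of the most-read sites. All of them had the same nearest annotated donor, and they lay 4, 9 and 70 bases downstream of it. That donor without them had only 6 and 13 reads. The donor at 4 bases was in 41.1% of the reads of the gene in replicate 1 and 33.2% in replicate 2, that at 9 bases in 11.5% and 9.34%, and that at 70 bases in 15.5% of both. The introns from the sites at 4 and 9 bases spanned 9 annotated exons of 30 bases or fewer. Tnnt1, its slow counterpart, had a donor 12 bases downstream with 53 and 160 reads, and no read had the annotated donor without it. Its introns spanned 5 annotated exons of 30 bases or fewer, the most-read of which had 202 reads.

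Sites 11 to 100 bases away changed exon ends more widely. Mknk2, a kinase of translation initiation factors, had a donor 42 bases upstream, with 608 and 543 reads and a use of 68.3% and 64.3%. Coro6, a coronin that binds actin, had an acceptor 59 bases downstream with a use of 72.9% and 72.5%. In both genes the exon base beside the nearest annotated site is outside the annotated coding parts. The rest of these exons was not classed. Qk, the RNA-binding protein quaking, had an acceptor 24 bases downstream with 136 and 433 reads and a use of 85.5% and 86.3%: the reads differed between the libraries with those of the gene (192 and 542), and the use did not differ beyond its interval. Hfe2, hemojuvelin of the iron-sensing pathway, had an acceptor 18 bases upstream with a use of 54.7% and 57.5%. Pdlim5, a Z-disc protein with PDZ and LIM domains, had a donor 28 bases downstream used in 94.2% and 96.4%, and Pdlim7 and Car14, described above, had upstream acceptors used in 93.4% and 97.2% and in 98.9% and 99.6%.

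Pde4dip, myomegalin, a scaffold of the centrosome and Golgi, held a cluster of new acceptors. The pair printed above lies 51 and 54 bases downstream of the annotated acceptor, and its AGs stand 3 bases apart in the sequence. The acceptor at 51 bases had a use of 40.9% and 41.6%, and that at 54 bases 34.8% and 37.4%. Each use is set against the same annotated acceptor and leaves out the reads of the other new one, so the 2 cannot be added. Of the reads of the gene, the acceptor at 51 bases had 20.4% and 21.5%, and that at 54 bases 15.7% and 18.0%. Elsewhere in the gene an acceptor 56 bases downstream had 364 and 523 reads and a use of 29.4% and 33.9%. All values of these acceptors in the libraries differed by less than 5 percentage points.

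Moving both ends of an intron together was rare. Among 7577 introns of the models with both ends new, 105 had both ends displaced by the same number of bases, up to 30, in the same direction, 88 of them distinct. In Got2, mitochondrial aspartate aminotransferase, such an intron was displaced by 4 bases and had 219 reads. In Ptcd3, a mitochondrial RNA-binding protein, it was also displaced by 4 and had 122 reads, and the printed GTAG was left out in all of the reads at that acceptor. In Actn3, the actinin of fast fibres, it had 19.

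Whole new exons made up the third kind of change. There were 5271 internal exons with both ends new and no overlap with an annotated exon, of which 224 had at least 10 reads and 213 of those were in both libraries. Of the exons with 1 read 34.5% were a multiple of 3 bases long (interval 33.0 to 36.1%), and of those with at least 10 reads 54.0% (47.5 to 60.4%). Between coding exons of the gene the latter share was 57.4% (48.7 to 65.6%). For the other new exons with at least 10 reads it was 49.5% (39.6 to 59.4%), and these intervals overlap. The bases of these exons were not read here.

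Mybpc1, slow myosin-binding protein C of the thick filament, held the 2 most-read new exons, at chr10:88575842-88575880 (39 bases) and chr10:88575129-88575164 (36 bases). Inclusion, the reads with the exon among those with it or with an intron across it, of the 39-base exon was 44.8% (interval 43.2 to 46.5%) in replicate 1 and reached 48.8% (interval 47.0 to 50.7%) in the other library. That of the 36-base exon was 42.8% and 48.9%. In Bin1, amphiphysin of the T-tubules, an exon of 45 bases was included in 98.9% and 99.4% of reads, and in Ywhae, an adaptor of phosphorylated proteins, another of 45 bases was in 84.6% and 85.6%. Bin1 and Ywhae thus used their new exon in most reads, and Mybpc1 in fewer.
Phkb, the regulatory beta subunit of phosphorylase kinase, had one of 91 bases in 95.0% and 93.9%. In Tmem65 an exon of 81 bases was in 81.1% and 79.9%. In Pde4dip one of 61 bases was in 67.7% and 61.7%, and in Tnnt3 one of 62 bases in 19.8% and 20.9%. Phkb, Pde4dip and Tnnt3 are the 3 among the first 8 whose exon is not a multiple of 3. Ccpg1, Usp25, Fermt2 and Ppp3cb followed, with exons of 21 to 114 bases, all multiples of 3.

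**Figure D5:**
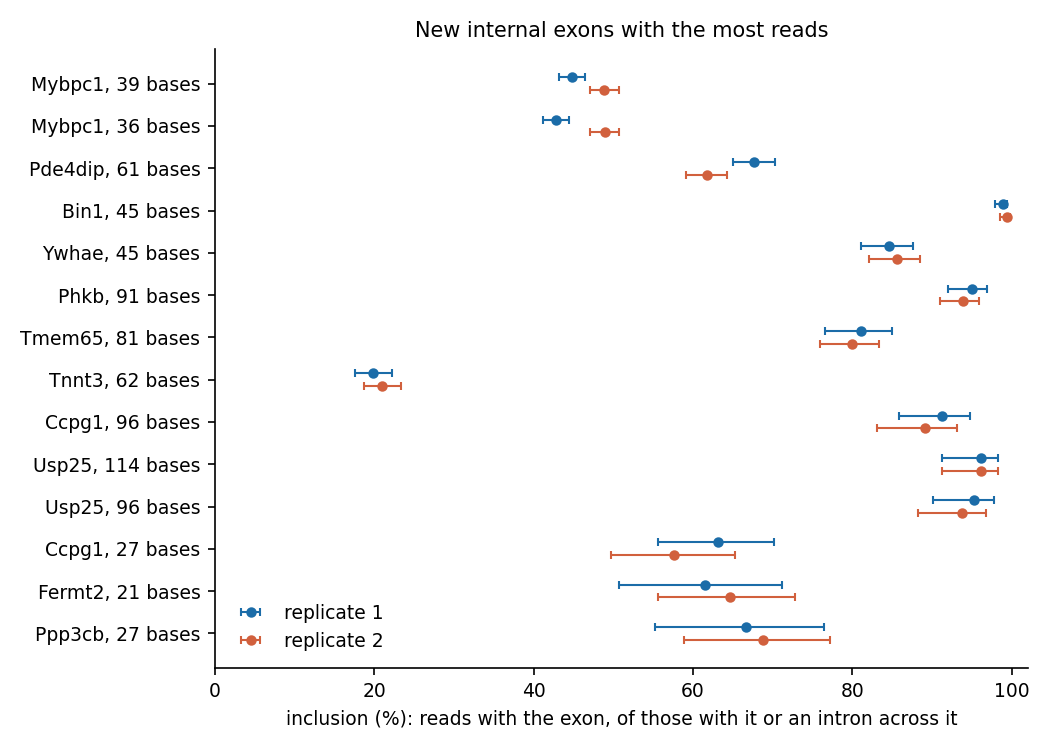
Inclusion (x axis, %) of the 14 most-read new internal exons (y axis, gene and length in bases). Points are the libraries and bars 95% Wilson intervals; the exon of Bin1 lies at 98.9 and 99.4%, those of Mybpc1 between 42.8 and 48.9% and that of Tnnt3 at 19.8 and 20.9%.

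The largest single contribution was at the start of Myh4 (chr11:67238029-67260446 in the annotation). The main model, of 40 exons, began with an unannotated first exon that ended at the printed donor, outside the annotated gene, and was joined to the printed acceptor, whose AG is the first 2 bases of the annotated gene. The gene start in the RefSeq promoter table, at 67237812, lies upstream of the new donor. This model had 4646 reads in replicate 1 and 4752 in replicate 2. The donor had 4799 and 4903 reads, and 599 and 694 reads had the annotated first donor without it, a use of 88.9% (88.0 to 89.7%) and 87.6% (86.7 to 88.4%).

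Gpd2 and Cct6a had models with both a new donor and a new acceptor. Gpd2, mitochondrial glycerol-3-phosphate dehydrogenase, had a model of 18 exons with 199 and 200 reads, and its new donor and acceptor lay 2870 and 2111 bases downstream of the annotated ones. Cct6a had one with a donor 61 bases downstream and an acceptor 33 bases upstream, with 89.5% and 87.6% of the reads of the gene. In both models the shares of gene reads in the libraries lay within 2 percentage points of each other.

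The libraries were then compared model by model. For each spliced model of 10 or more summed reads, where the gene reached 20 in both libraries, a two-sided Fisher's exact test set its reads against the other reads of the gene, with Benjamini-Hochberg adjustment over all 9733 models tested and a threshold of 0.05. Of 808 models with new sites, 11 were called (1.36%), 2 higher and 9 lower in replicate 2, against 2.05% of the other spliced models and 1.99% of all models tested. The split by direction depended on the scale. Set against the library total, 15 models were called, 10 higher and 5 lower, and edgeR's exact test called 9, 6 higher and 3 lower; these shared 5 and 4 models with the 11. The edgeR calls rest on a dispersion preset to 0.01 and not estimated from these libraries, so they are no independent check. The median size of the difference in share of gene reads over the 808 was 1.07 percentage points. Of the 15 most-read models 13 were not called. The exceptions were the Myh4 model and a Mybpc1 model.

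The share of gene reads on the main Myh4 model was 36.6% in replicate 1 and 29.1% in replicate 2 (Fisher's exact test, adjusted p = 3.88e-38). The use of its donor against the annotated first donor, given above, did not pass (Fisher's exact test, adjusted p = 0.716). The share of the gene also counts reads that do not reach the first exon. A model of Exoc6, of the exocyst, rose from 27.0% to 45.3% (Fisher's exact test, adjusted p = 0.0421), while its new donor against the nearest annotated one had a use of 29.7% and 49.5% and did not pass (adjusted p = 0.0967, same exact test). An 11-exon Tnnt3 model rose from 4.13% to 7.78% (adjusted p = 0.000429 by the same exact test). A 3-exon Tmem232 model fell from 57.7% to 15.3%, on 15 and 11 reads. Its new donor had a displacement of -51906 bases (negative is upstream) from the nearest annotated donor. A Maged2 model fell from 37.5% to 0 of 28 gene reads, which allows up to 10.7%. All 6 splice sites of this 4-exon model were new, so it shared none with the annotated transcripts of the gene. Their displacements went from -106260 to -140282 bases. Whether the Tmem232 and Maged2 differences are changes of splicing within these genes was not tested. An Slc41a3 model, of a magnesium transporter, fell from 46.0% to 29.5%. The Slc41a3 and Tmem232 calls were lost with no read minimum (Fisher's exact test, adjusted p = 0.208 and 0.0579), against the library total (adjusted p = 0.874 and 0.839) and with edgeR's exact test (adjusted p = 1 for both). The Exoc6 call was lost with no read minimum (adjusted p = 0.440).

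By gene, the share of reads on models with new sites was called in 7 of 1326 genes (0.528%), all lower in replicate 2: Myh4, Mybpc1, Tnnt3, Tnnt1, Slc41a3, Maged2 and Tmem232. Unadjusted, 62 genes had p under 0.05. With spliced reads of the gene as the denominator, the difference for Tmem232 went from -51.3 to -7.69 percentage points and its call was lost (Fisher's exact test, adjusted p = 1). In Tnnt3 the share fell from 50.1% to 39.2% and in Tnnt1 from 8.14% to 2.19%. The slow-fibre genes, a list chosen after the counts were seen, had 1636 reads in replicate 1 and 11428 in replicate 2, among them Tnnt1 with 307 and 2599 and Myh7, the slow myosin heavy chain, with 422 and 4414. The adipocyte markers had 1689 and 233 reads, the Schwann cell markers 914 and 132 and the skeletal muscle markers 183470 and 182781. In bulk tissue a change in the number of cells of a type and a change in RNA per cell cannot be told apart. The part of this difference in the calls was not tested.

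The direction for Mybpc1 depended on which reads were counted. Its share on models with new sites fell from 26.7% to 20.0% (Fisher's exact test, adjusted p = 3.36e-08), while its share of reads with a new site in any class rose from 42.9% to 47.2% (adjusted p = 0.0447, same exact test). Across all genes, 9 of 1468 (0.613%) were called by that second count, with Trdn and Mybpc1 higher and Tmem232, Maged2, Slc41a3, Tnnt1, Tnnt3, Myh4 and Ybx3 lower. A Mybpc1 chain of 30 exons with both new exons and without the annotated 42-base exon fell from 373 to 66 reads, and its class differed between the libraries. A chain of 31 exons with both new exons and the 42-base exon rose from 354 to 606 reads. It was classed in both libraries as a new combination of annotated sites, although no annotated transcript uses those sites, and so is no member.

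Counted by site in place of model, 25 of 1613 new sites were called (1.55%), 7 higher and 18 lower in replicate 2, against 1.57% of all splice sites tested. Set against the nearest annotated site, 2 of 1393 new sites were called (0.144%), with 86 at an unadjusted p under 0.05. Both belong to the 36-base exon of Mybpc1, whose donor had a use of 42.6% and 48.8% (Fisher's exact test, adjusted p = 0.000841). For Trdn, an acceptor 18 bases downstream rose from 7.53% to 13.1% of gene reads, but against the nearest annotated acceptor it had a use of 34.6% and 33.1%.

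The gene lists differed in how much of their reads lay on models with new sites. Of the thick filament genes 15 had at least 100 reads, with a median of 3.02%, and of the calcium-handling genes 19, with 3.37%. The median was 2.01% for 16 thin filament genes, 1.89% for 21 Z-disc and cytoskeleton genes, and 2.20% for 14 muscle signalling genes. It was 1.59% for 25 genes of glycolysis, glycogen and creatine kinase, 1.14% for 22 of chaperones and proteolysis, 0.870% for 38 of oxidative phosphorylation and 0.602% for 27 of the ribosome and elongation. All genes with at least 100 reads had 2.29%. In the test between the libraries 2 of 13 tested thick filament genes and 2 of 11 thin filament genes were lower in replicate 2, none was higher, and no gene of the other 8 lists was called, against 0.528% of all genes tested. Of the thick filament genes, Mybpc1 turned to 4.38 points higher when reads of any class were counted.

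Within the lists, some genes stood far above the median. Among calcium-handling genes Jph1, which ties the reticulum to the T-tubules, had 50.8% in both libraries, while Casq1, the calcium store, lay near the median of the list with 3.57% and 3.51%. Among Z-disc genes Pdlim5 had 80.0% and 79.3% and Synpo2 33.3% and 30.1%. Among oxidative genes Atp5j had 11.4% and 9.31%, and in the ribosome list Rps24 had the maximum, 48.8% over both libraries. Phkb had 81.2% in both libraries, and Trim63, a muscle ubiquitin ligase, had 36 and 24 reads on such models.

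Of the 39 listed splicing factors, which choose splice sites, 36 had at least 1 read on such a model. The other gene lists went from 21 of 28 genes of the ribosome and elongation to all 16 thick filament genes. Among all annotated genes with a read, whatever their depth, 8547 of 15371 did (55.6%). The median share over the 19 splicing factors with at least 100 reads was 2.02%, against 2.29% for all such genes, and none of the 7 tested was called. Hnrnpk had 34.8% in replicate 1 and 39.7% in replicate 2, and Rbfox1, a muscle and neuron regulator, 36.7% and 44.4% on 60 and 36 reads of the gene. Hnrnpm had 22.2% and 28.2%, Mbnl1, a regulator of the fetal to adult switch in muscle, 5.62% and 4.89%, and its relative Mbnl2 3.35% and 1.14%. Hnrnpa2b1 had 2.14% and 1.88%, Rbm24 2.66% and 1.88%, and Hnrnph1 had 4 and 6 reads of 18 and 13. The intervals of the libraries overlapped for each of them.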

How the data were processed

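Long reads of 2 gastrocnemius libraries were analysed. The authors deposited raw read counts per transcript model, with the number of exons and length of each model, and exon coordinates, on mm10; per the deposited notes and the file headers the models were made by TALON with GENCODE M21, and no normalization was applied. The aligner is not given in the sources used here. All annotated exons matched GENCODE M21. Library depths were 1349298 and 1359923 reads.

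A new site is a donor or acceptor that no annotated transcript of the gene uses as that kind. Models were joined by gene and intron chain. Shares carry 95% Wilson intervals. Python 3.11.15, pandas 2.3.3, SciPy 1.17.1, statsmodels 0.14.6 and, as an alternative, edgeR 4.0.16 were used. The edgeR run used TMM scaling and a preset dispersion of 0.01. The tests were checked on simulated data. The tests asked for 20 reads of the gene per library and 10 summed reads of the feature.

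The members, lists and tests were chosen with earlier results of these data known. Genes were named as the 20 with the most member reads, the 15 most-read models that reached 10 reads in both libraries, the 10 most-read sites per distance class (1 to 10, 11 to 100 and over 100 bases), the 5 largest called rises and falls, up to 4 genes per list, splicing factors with at least 10 reads and the 10 highest shares. Counting over all classes, use of a site, the Dus1l, Hgs, Golga4, Flii, Trdn, Fam114a2, Nudt4, Nrap, Bsg, Atp2a2, Got2, Ptcd3 and new-exon examples and the short-exon comparison were added after the data were seen. Models of 1 read may hold sequencing or alignment errors. Results for some genes that this rule names are not reported here.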

Additional observations from a re-analysis of the deposited data

How the results depend on the processing

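No paired analysis was possible because the 2 libraries form 1 group and no groups share replicate numbers. In each library most models had 1 read.

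The share of reads on models with new sites, 3.17%, was 2.23% with at least 2 reads per model, 1.79% with 5, 2.81% without Myh4, 3.34% of annotated-gene reads, 3.71% without Atp2a1, 3.49% with any class of the chains, 4.31% with any read of a new site, and 3.14 to 3.20% leaving out each library. The share seen in both libraries, 11.1%, was 54.5% and 77.1% with 2 and 5 reads, 16.0% joined by new sites and 15.3% in any class; it needs both libraries, as do the tests. Sites within 10 bases, 26.7%, were 26.1% and 24.6% with 2 and 5 reads, 29.6% against sites of every gene, 20.5% weighted by reads and 26.5 to 27.3% leaving out each library. Multiples of 3, 32.6%, were 37.6% and 44.0% with 2 and 5 reads, 35.3% by reads, 29.7% within 10 bases and 33.0 to 34.2% leaving out each library. Displacements equal to a spanned exon, 0.115%, were 0.287%, 0.562% and 0.0182% with 2 reads, 5 reads and within 10 bases, and 0.119 to 0.161% leaving out each library.

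The 11 models called became 7 with no minimum, 140 within the class alone, 25 by site, 2 against the nearest annotated site, 15 of the library total (10 higher, 5 lower) and 9 with edgeR (6 higher, 3 lower). The 7 genes became 58 within the class alone, where a chain classed otherwise in 1 library counts as 0 there. Within the class the difference of the 11-exon Tnnt3 model turned to -4.13 points, that of the Mybpc1 gene to 6.89 and that of Tnnt1 to 0.564. With reads of any class the Mybpc1 gene turned to 4.38 points. The Myh4 model turned to 0.00510 points of the library total (Fisher's exact test, adjusted p = 0.859) and to a log2 difference of 0.026 with edgeR's exact test (adjusted p = 1). Of the single models, genes and sites, 169 values stayed the same, 19 moved, 7 passed the threshold newly, 8 lost it (the Slc41a3 and Tmem232 models in 3 settings each, the Exoc6 model and the Tmem232 gene in 1 each) and these 6 turned direction. Except where the count within the class is named, the cause was not tested.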
